A study of Mus musculus with 18 samples.

Results

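The genes described here are 10 targets of the transcription factor NF-kB. They encode inflammatory cytokines, chemokines, an adhesion molecule, an NF-kB subunit, a nuclear cofactor of NF-kB and inhibitors that switch the factor off again. They were taken by symbol from a list, and all 10 of 10 were present in both deposited tables, among 21830 genes for spleen and 14423 for bone marrow. The study compared C57BL/6 mice in which the response to cytosolic DNA is broken at different steps. Cgas-/- cells lack the DNA sensor cGAS and cannot make its messenger cGAMP, while TREX1, which degrades cytosolic DNA, and the cGAMP receptor STING are intact. The other genotype, Trex1-/-;Sting1gt/gt and called dKO, lacks TREX1 and carries the goldenticket allele, which gives no functional STING. Spleens came from lethally irradiated dKO mice 12 weeks after a transplant of Cgas-/- marrow (5 libraries) or of dKO marrow (5 libraries), so the host cells that survived irradiation were dKO in both groups. Bone marrow came from untransplanted Cgas-/- mice (4 libraries) and dKO mice (4 libraries). RNA of cells in suspension was sequenced by QuantSeq, which counts transcripts from their 3' ends. No wild-type group enters either comparison, and the sources used here do not give the ages of the mice.

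NF-kB dimers wait in the cytoplasm of resting cells, held by inhibitors of the IkB family. A signal from a Toll-like receptor, from the receptors of TNF or IL-1, or from STING activates IkB kinases, the inhibitor is degraded, and the dimer enters the nucleus. It then induces cytokines that recruit and arm leukocytes together with its own inhibitors, so the response is brief. Downstream of cGAMP this is the second arm of STING signalling, beside the better known induction of type I interferon through IRF3. Monocytes, macrophages and neutrophils are known makers of these cytokines in marrow and spleen.

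The kappaB site is the DNA element that NF-kB binds, and the promoters that hold one are shown because they mark the members whose start region carries the pathway's own control letters. RefSeq promoters (GRCm38.p6, 250 bases before to 50 bases after a start) were found for 7 of the 10 members. A script looked on both strands for the kappaB consensus of 10 letters. It was present in the promoters of 3 members, against 9.55% of the 27025 genes of that promoter table. Matches are in capitals, 5′ to 3′ on the strand of the gene. Cxcl2 (chr5:90903649-90903948, plus strand) has 2 overlapping matches on the 2 strands, the first starting 97 bases before the start. Nfkbia (chr12:55492598-55492897, minus strand) has 1 match, starting 29 bases before the start. One of 2 listed promoters of Tnfaip3 (chr10:19015361-19015660, minus strand) has 2 matches, starting 125 and 12 bases before the start.
Cxcl2: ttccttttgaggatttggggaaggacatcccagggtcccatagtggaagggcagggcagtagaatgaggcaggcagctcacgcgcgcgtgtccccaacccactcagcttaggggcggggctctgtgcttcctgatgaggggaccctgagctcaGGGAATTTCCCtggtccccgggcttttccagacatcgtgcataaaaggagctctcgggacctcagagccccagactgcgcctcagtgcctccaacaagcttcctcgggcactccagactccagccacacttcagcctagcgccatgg
Nfkbia: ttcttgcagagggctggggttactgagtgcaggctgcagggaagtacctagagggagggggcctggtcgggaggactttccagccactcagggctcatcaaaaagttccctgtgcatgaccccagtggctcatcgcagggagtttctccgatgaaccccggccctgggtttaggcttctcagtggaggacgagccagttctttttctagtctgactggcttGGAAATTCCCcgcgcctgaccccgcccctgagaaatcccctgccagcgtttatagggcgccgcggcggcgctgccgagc
Tnfaip3: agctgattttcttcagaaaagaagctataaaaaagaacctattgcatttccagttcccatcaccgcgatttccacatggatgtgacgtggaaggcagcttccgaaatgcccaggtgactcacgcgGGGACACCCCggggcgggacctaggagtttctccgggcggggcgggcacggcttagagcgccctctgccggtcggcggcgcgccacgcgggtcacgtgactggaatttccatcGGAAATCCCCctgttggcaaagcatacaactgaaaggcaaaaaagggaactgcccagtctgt
No match lay in these windows for Tnf, Il1b, Ccl3 and Icam1, which says only that these letters are not there.

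The deposited tables hold the comparisons alone, so a member has 1 mean over all libraries of a tissue and 1 fold change. Values of single libraries, and whether groups overlapped, were not analysed here. The depth per library is therefore unknown. All fold changes are on the log2 scale, for the Cgas-/- genotype over dKO, and a gene is called when its adjusted p is under 0.05. As a check of the labels, the authors' deposited tables list Trex1 higher in the Cgas-/- groups, at 2.71 ± 0.199 (standard error, as throughout) in spleen and 1.45 ± 0.178 in bone marrow. Cgas itself was at -0.92 ± 0.217 in spleen, where it appears under its older symbol Mb21d1, and at -1.13 ± 0.155 in bone marrow in the authors' deposited tables. The tissues matched their labels: the 8 B cell markers held 0.401% of the summed mean counts in spleen and 0.0458% in bone marrow, and the 8 neutrophil markers 0.532% in spleen and 8.65% in bone marrow. In spleen the Y-linked gene Ddx3y was at -4.76 ± 0.481 in the authors' deposited table, so Y-linked expression also differed between the recipient groups, and its part in the values below was not tested. In these bulk samples, fewer cells of a type and less RNA per cell cannot be told apart.

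In spleens that received Cgas-/- marrow, no member was called against dKO marrow. DESeq2 in the authors' deposited table gave every member an adjusted p of 0.999997, in a table where 29 of 21830 genes (0.133%) were called. Of the 10 members, 8 had a fold change above 0, with a median of 0.13, where 45.0% of all genes were above 0 and their median was -0.03. All 10 members had a mean of at least 20 normalized counts. Of the 11118 spleen genes with such a mean, 52.0% were above 0 (median 0.0057). At an unadjusted p under 0.05, 225 of those 11118 genes were higher and 176 lower. At that level 2 members were higher (1.17% of all genes were) and 0 were lower (1.85% of all genes). Both of the 2 encode inhibitors that end NF-kB signalling.

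Nfkbia and Tnfaip3 are those inhibitors. Nfkbia, on chromosome 12 at 55489410 to 55492647, encodes IkBα, the protein that pulls NF-kB dimers out of the nucleus. It had the highest mean of the members in spleen, 4714 normalized counts, and the authors' deposited table gives it 0.12 ± 0.0538, a 1.09-fold difference with an unadjusted p of 0.0281. Tnfaip3, on chromosome 10 at 19000910 to 19015657, encodes A20, a ubiquitin-editing enzyme that shuts off signalling above the IkB kinases. With a mean of 132 normalized counts in spleen it was at 0.34 ± 0.165 in the authors' deposited table, 1.26-fold, with an unadjusted p of 0.0415. Neither was near a call, since the smallest Wald statistic of a called spleen gene was 4.10 in size and theirs were 2.20 and 2.04.

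Cytokine and chemokine genes in spleen all had estimates above 0, with wide errors. Il1b, which encodes the precursor of interleukin-1β, was at 0.22 ± 0.176 (mean 506 normalized counts), and Tnf, which encodes tumour necrosis factor, at 0.06 ± 0.174 (mean 75.3), both from the authors' deposited table. Ccl3 and Ccl4 are neighbours on chromosome 11 and encode chemokines that draw monocytes and T cells. The authors' deposited table has them at 0.46 ± 0.410 and 0.13 ± 0.346 in spleen, with means of 21.2 and 54.6 normalized counts. Cxcl2, a chemokine that draws neutrophils through CXCR2, was at 0.34 ± 0.685 in the same authors' deposited table (mean 27.6), so a 95% interval ran from -1.001 to 1.68.

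The remaining members had 95% intervals that included 0 in spleen. Relb, the subunit that pairs with p52 in the slower, non-canonical NF-kB pathway, was at 0.07 ± 0.101, and Nfkbiz, whose product IkBζ is a nuclear cofactor for secondary NF-kB targets, at -0.06 ± 0.133, in the authors' deposited table. Icam1, the adhesion molecule to which leukocyte β2 integrins bind, was at -0.17 ± 0.150 there, by the authors' deposited table.

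**Figure D1:**
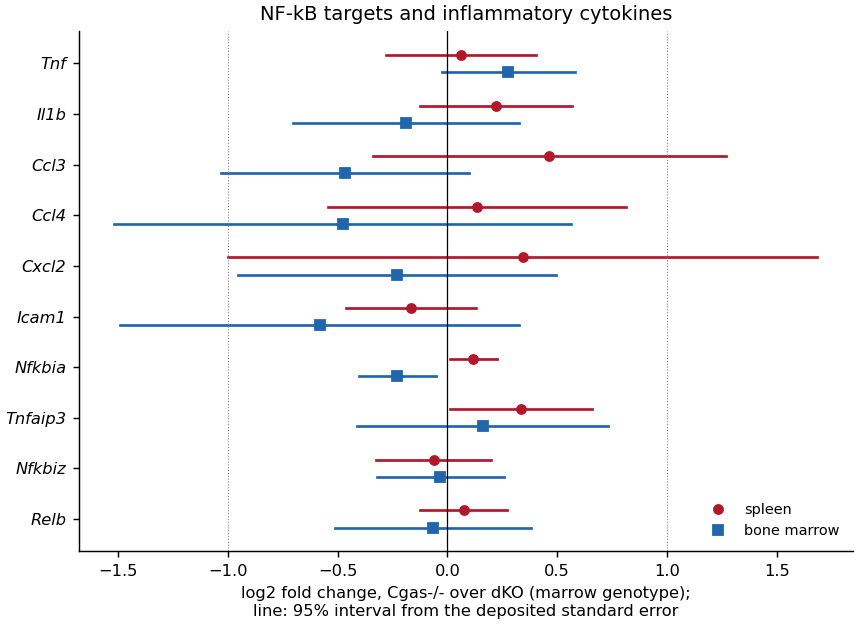
Log2 fold change (Cgas-/- over dKO) of each member in spleen (circles) and bone marrow (squares), with 95% intervals from the deposited standard errors; dotted lines mark a 2-fold change. The intervals of Nfkbia lie above 0 in spleen and below 0 in bone marrow, Tnfaip3 in spleen lies above 0, and every other interval crosses 0.

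In untransplanted bone marrow, Cgas-/- against dKO, again no member was called. DESeq2 in the authors' deposited table called 77 of 14423 genes (0.534%), and the smallest adjusted p of a member was 0.316. Of the members, 2 were above 0 and 8 below, with a median of -0.21, where 49.5% of all genes were above 0 and their median was -0.0023. At an unadjusted p under 0.05, 0 members were higher (4.19% of all genes) and 1 was lower (4.65% of all genes). That 1 was Nfkbia, at -0.23 ± 0.0897 in the authors' deposited table (mean 4794 normalized counts, unadjusted p = 0.0105), a 1.17-fold difference.

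Apart from Icam1, the chemokine genes Ccl4 and Ccl3 had the most negative marrow estimates, and the chemokine gene Cxcl2 was level with Nfkbia. The 95% interval of each chemokine gene included 0. In the authors' deposited table Ccl3 was at -0.47 ± 0.288 and Ccl4 at -0.48 ± 0.531, with means of 63.7 and 20.3 normalized counts in marrow. Cxcl2 was at -0.23 ± 0.369 there (mean 34.9, authors' deposited table). Icam1 was at -0.58 ± 0.463 in the authors' deposited table, with a mean of 38.6 normalized counts and a 95% interval from -1.49 to 0.32. Icam1 is the 1 member on chromosome 9, which carries both deleted genes, at 21015985 to 21028817, 57.4 Mb from Cgas and 88.0 Mb from Trex1. A gene on the opposite strand overlaps it, and another overlaps Il1b, and the sources used here do not give the counting strand.

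Among the other marrow values, the cytokine genes differed in sign. Tnf, on chromosome 17, was at 0.28 ± 0.154 in the authors' deposited table (mean 169 normalized counts, unadjusted p = 0.0713), the highest estimate of any member there, and Il1b was at -0.19 ± 0.262 (mean 625). Tnfaip3 was at 0.16 ± 0.292, Relb at -0.07 ± 0.228 and Nfkbiz at -0.03 ± 0.147 in the authors' deposited table. The inhibitors therefore did not share a sign in marrow, with Nfkbia below 0 and Tnfaip3 above.

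The size of change that would have been called differed widely between members. From the size of the smallest called Wald statistic (4.10 in spleen, 3.65 in bone marrow) and the deposited standard errors, Nfkbia would have been called at a log2 change of 0.22 in spleen and 0.33 in bone marrow. For Cxcl2 in spleen the same limit was 2.81, a 6.99-fold change, and for Ccl4 in bone marrow 1.94, a 3.82-fold change. The 95% intervals lay within a 2-fold change in either direction for 8 of 10 members in spleen, all but Ccl3 and Cxcl2. In bone marrow they did for 7 of 10, all but Ccl3, Ccl4 and Icam1. Tnf, Il1b, Nfkbia, Tnfaip3, Nfkbiz and Relb had intervals within 2-fold in both tissues.

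Il1b was less precise than its counts alone would give. Its standard error was 1.89 times the median of 1854 spleen genes with a mean within 1.5-fold of its own, and 2.48 times that of 1940 such genes in bone marrow. Cxcl2 (2.36 times) and Ccl4 (1.68 times) were also wide in spleen, while Nfkbia there was narrow, at 0.619 times the median of 99 genes of like mean. In bone marrow Icam1 stood at 1.41 times, and the other members except Il1b lay between 0.907 and 1.16 times. A standard error above that of genes with like means shows a wider spread between the libraries, and which libraries were high or low was not analysed here.

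**Figure D2:**
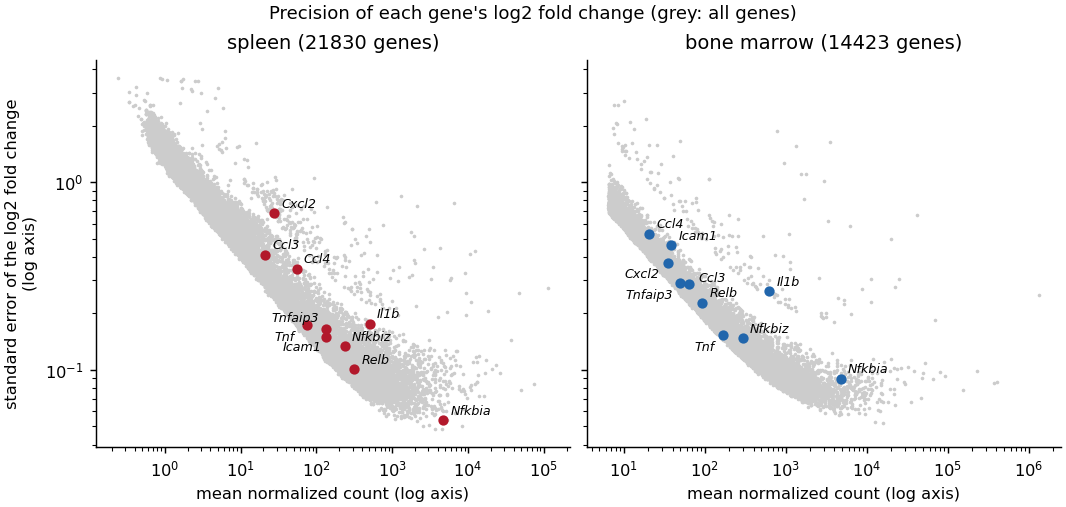
Standard error of the log2 fold change against the mean normalized count, both on log axes, for all genes (grey) and the members (coloured) in spleen and bone marrow. Nfkbia has the highest mean and the smallest error of the members in both tissues. Il1b (both tissues), Cxcl2 and Ccl4 (spleen) and Icam1 (bone marrow) lie above the bulk of genes with like means.

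The difference between tissues, the spleen minus the bone marrow fold change, sets the transplanted against the untransplanted comparison. No member was called among 13776 genes listed in both tables, of which 8 (0.0581%) were. The difference was above 0 for 8 of 10 members, with a median of 0.38, where 47.5% of all genes were above 0 with a median of -0.01. Of the 9999 genes with a mean of at least 20 in both tissues, 50.6% were above 0 (median 0.0032). At an unadjusted p under 0.05, 283 of those 9999 genes had a higher value in spleen and 235 a lower one. At that level 1 member had a higher value in spleen (2.21% of all genes did) and 0 had a lower one (2.59% of all genes). Nfkbia was that member, with a difference of 0.35 ± 0.105 (unadjusted p = 8.87e-04, adjusted p = 0.349, normal test of the difference across all shared genes). It ranked 35 by size of the statistic among the 13776 genes, and its fold changes had opposite signs, above 0 in spleen and below 0 in bone marrow.

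Ccl3 was next, with a difference of 0.93 ± 0.501 and an unadjusted p of 0.0634. Ccl4 (0.61 ± 0.633), Cxcl2 (0.57 ± 0.778), Icam1 (0.42 ± 0.486) and Il1b (0.41 ± 0.316) had differences above 0 whose 95% intervals included 0. Tnf had the lowest difference, -0.22 ± 0.232, and Nfkbiz had -0.03 ± 0.199, a 95% interval from -0.42 to 0.36. Of the 10 members, 4 had the same sign in both tissues (Tnf and Tnfaip3 above 0, Nfkbiz and Icam1 below), against 51.5% of all shared genes. Tables for the tissues were normalized separately, and the tissues also differ in transplantation and in host cells, which cannot be told apart here.

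**Figure D3:**
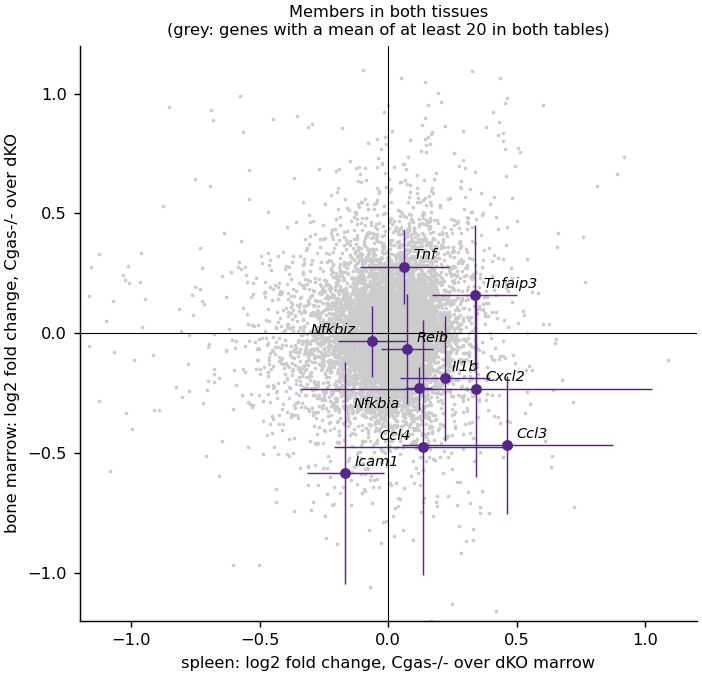
Log2 fold change in spleen (x axis) against bone marrow (y axis) for the members, with bars of 1 standard error, over all genes with a mean of at least 20 in both tables (grey; genes beyond 1.2 on either axis are outside the frame). Il1b, Ccl3, Ccl4, Cxcl2, Nfkbia and Relb sit at the lower right, above 0 in spleen and below 0 in bone marrow.

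The wider pathway gave no call either. Of 62 other genes of the NF-kB pathway, 61 were listed for spleen and 56 for bone marrow. DESeq2 called 0 of them in each of the authors' deposited tables. Estimates above 0 were found for 41 of 61 in spleen (median 0.04) and for 24 of 56 in bone marrow (median -0.03). Of all genes, 45.0% were above 0 in spleen and 49.5% in bone marrow, and 52.0% and 49.3% of those with a mean of at least 20. At an unadjusted p under 0.05, 2 were higher and 0 lower in spleen (1.17% and 1.85% of all genes). In bone marrow 1 was higher and 1 lower at that level (4.19% and 4.65% of all genes). The spleen genes were Zfp36, which encodes the mRNA decay factor tristetraprolin that destroys Tnf transcripts, at 0.42 ± 0.136, and the stress gene Gadd45b, at 0.28 ± 0.141, in the authors' deposited table. In bone marrow they were Il1r2, a decoy receptor that binds interleukin-1 without signalling, at 0.28 ± 0.136, and Cyld, a deubiquitinase that restrains NF-kB, at -0.21 ± 0.0931, in the authors' deposited table.

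By role, the 4 other NF-kB subunit genes had a median of 0.03 in spleen and 0.07 in bone marrow. Rela, the main transactivating subunit, was at -0.06 ± 0.0816 in spleen, and Nfkb1, its usual partner, at 0.05 ± 0.0890, both in the authors' deposited table. The 10 other feedback genes had medians of 0.08 in spleen and -0.03 in bone marrow. For the 14 kinases and adaptors these were 0.05 and -0.03, and for the 8 receptors that signal to or buffer NF-kB 0.05 and -0.06, in spleen and bone marrow. Among other targets the median was 0.02 over 25 genes in spleen and -0.04 over 20 in bone marrow. Among these targets Ptgs2, the inducible cyclooxygenase gene, was at 1.06 ± 0.619 in the authors' deposited table for spleen, with a mean of 6.30 normalized counts and an unadjusted p of 0.0873.

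Receptors for the members' own products held the 1 call near the pathway. Itgb2, the β2 integrin chain shared by the receptors of ICAM1, was lower in Cgas-/- marrow at -0.32 ± 0.0802 in the authors' deposited table (adjusted p = 0.0237, DESeq2). With a t distribution in place of the normal, Itgb2 was not called, and neither were the deleted genes Trex1 and Cgas. Its partner chain Itgal was at -0.27 ± 0.0794 in the same tissue by the authors' deposited table and was not called (adjusted p = 0.0958, DESeq2). Of these 10 receptor genes, 1 was higher (Il1r2) and 2 were lower in bone marrow at an unadjusted p under 0.05 (4.19% and 4.65% of all genes). In spleen 0 were called by DESeq2 in the authors' deposited table. There, 0 were higher and 1 was lower at that level (1.17% and 1.85% of all genes).

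The interferon arm of the same pathway can be set beside the members. Of 12 interferon-stimulated genes, in spleen 10 lay above 0 (median 0.15), and 0 were called by DESeq2 in the authors' deposited table (0 with an unadjusted p under 0.05). In bone marrow 11 of the 12 were below 0 with a median of -0.71. There, 3 were called lower by DESeq2 in the authors' deposited table, against 0 of the 10 NF-kB targets. At an unadjusted p under 0.05, 8 were lower, against 1 of the 10 targets. Of all 14423 genes 52 were called lower, and 4.65% were lower at that unadjusted level. The called genes of the list were Oas2, Oasl1 and Rtp4, and reads could be split between Oas2 and Oasl1 and their paralogs. With a t distribution in place of the normal, none of Oas2, Oasl1 and Rtp4 was called, and neither were Trex1 and Cgas. The difference between the lists was not tested.

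Lists of other genes are given here with the same counts, and their part in the members' values was not tested. At an unadjusted p under 0.05, 1.17% of all genes were higher and 1.85% lower in spleen. For bone marrow these shares were 4.19% and 4.65%. In spleen all 16 immediate early genes, which cells also induce while tissue is dissociated, were above 0, with a median of 0.35. One of them, the AP-1 subunit gene Fos (1.09 ± 0.158), was called by DESeq2 in the authors' deposited table, and 10 had an unadjusted p under 0.05, all above 0. In bone marrow 8 of 15 were above 0, with a median of 0.04 and 0 calls by DESeq2 in the authors' deposited table (1 higher and 1 lower at an unadjusted p under 0.05). Monocyte markers were below 0 for 8 of 8 genes in bone marrow, with a median of -0.32 and 2 DESeq2 calls in the authors' deposited table, Ly6c2 and Csf1r. In spleen 5 of 8 were above 0, with a median of 0.05 and 0 calls by DESeq2 in the authors' deposited table (0 with an unadjusted p under 0.05). Their mean counts summed to 5225 in spleen and 22921 in bone marrow, and no marker was at 0 in either. Neutrophil markers had medians of -0.18 in spleen and -0.15 in bone marrow, with 6 and 7 of 8 below 0 and 0 calls by DESeq2 in the authors' deposited tables. At an unadjusted p under 0.05, 0 neutrophil markers differed in spleen and 2 were lower in bone marrow, Csf3r (-0.26 ± 0.113) and Ly6g (-0.29 ± 0.105) in the authors' deposited table. Macrophage markers were below 0 for 8 of 8 in spleen (median -0.20) and 4 of 8 in bone marrow (median -0.03), with 0 calls by DESeq2 in the authors' deposited tables and 0 spleen genes and 1 marrow gene (Adgre1) lower at an unadjusted p under 0.05.

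**Figure D4:**
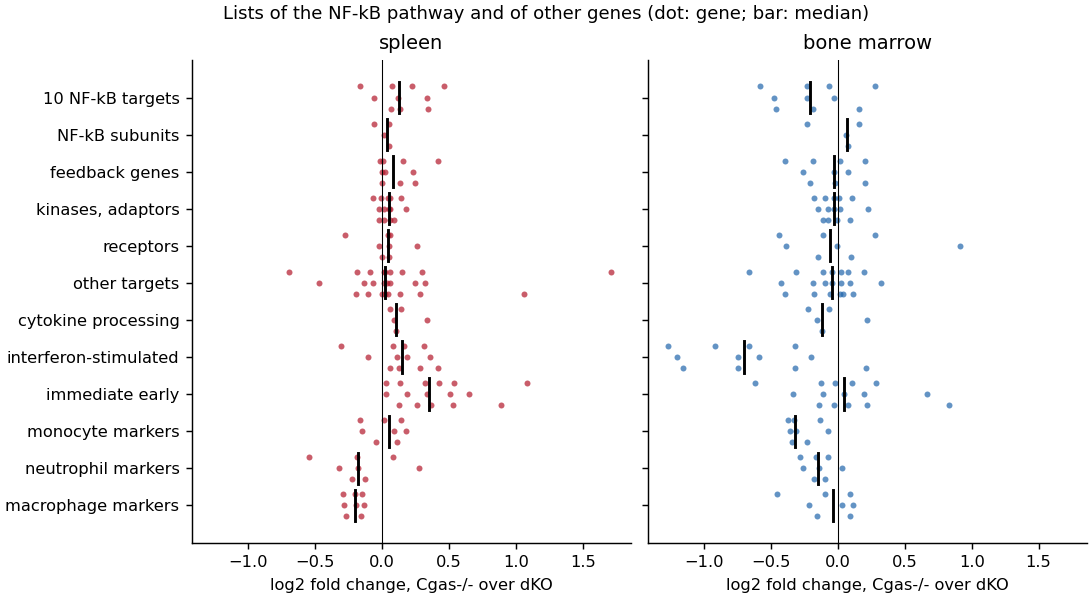
Log2 fold change (Cgas-/- over dKO) of each gene of 12 lists in spleen and bone marrow, 1 dot a gene, with a bar at the median of each list. The lists of the NF-kB pathway straddle 0 in both tissues, the interferon-stimulated genes lie mostly below 0 in bone marrow, and the immediate early genes all lie above 0 in spleen.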

How the data were processed

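The 10 spleen and 8 bone marrow libraries are QuantSeq forward libraries of cells in suspension, per the labels' protocols, and were grouped by their titles. Nothing in the labels ties each library to a mouse of its own, so a p-value reflects the spread among these libraries, part of which may be technical. Tools listed in the submitters' processing notes are STAR 2.6.1, bcl2fastq 1.8.4, Partek and DESeq2, with the build mm10; the sources used here give no further settings. The deposited files are 2 tables of DESeq2 results, 1 per tissue, per the file headers. A mean normalized count is a signal that the authors averaged over the libraries of a comparison after size-factor division, per the file headers. Log2 fold changes and standard errors are the authors' DESeq2 estimates, the Wald score is their ratio, and the p-value is the deposited normal one with its Benjamini-Hochberg adjustment. A deposited ranking score was not used. These relations were recomputed from the values.

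Computed here were 95% intervals from the standard errors, and the spleen minus bone marrow difference over the root of the summed squared errors. That difference has a two-sided normal p with Benjamini-Hochberg adjustment over 13776 genes. It was tested on simulated data drawn with the deposited standard errors, so that test cannot show whether those errors are too small. The members, and the lists of other genes, were chosen with earlier results of these data known. All members are named; of each other list, the rule takes called genes and those with the 2 smallest p per tissue, of which those that bear on the members are printed; 1 receptor gene is not reported here. Positions are from GENCODE M21 (GRCm38, the assembly of mm10). Python 3.11.15, pandas 2.3.3, numpy 2.4.6, scipy 1.17.1, statsmodels 0.14.6 and matplotlib 3.10.9 were used. Alternatives were a mean of at least 20, a t distribution, centring, a threshold of 0.1 and no filter on genes.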

Additional observations from a re-analysis of the deposited data

How the results depend on the processing

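Under all 5 alternatives, 0 members were called in spleen, in bone marrow or in the difference between tissues. No member's estimate changed sign, but only centring alters the estimates, so the signs could hardly have changed. The setting with no filter on genes repeats the main result, because the deposited adjustment already covered every listed gene. The smallest adjusted p of a member stayed between 0.284 and 0.986 in bone marrow and between 0.277 and 0.999 for the difference. Counts over all genes moved more. With a t distribution (8 degrees of freedom in spleen, 6 elsewhere) in place of the normal, 11 genes were called in spleen, 1 in bone marrow and 0 in the difference, against 29, 77 and 8. The 1 marrow call was higher and 0 were lower, so Itgb2, Oas2, Oasl1, Rtp4, Ly6c2 and Csf1r were not called. Nor was Hbb-bt, whose Wald statistic (3.75) was below that of Trex1 (8.16). The deleted genes Trex1 and Cgas, which ranked 6 and 8 by size of the statistic in bone marrow, were not called there either. A lost call in bone marrow under this setting therefore does not set a gene apart from the known deletions. Fos ranked 15 by size of the statistic in spleen, outside the 11 called there. With a threshold of 0.1, 124 genes were called in bone marrow. The median gene with a mean of at least 20 was at 0.0057 in spleen and -0.0029 in bone marrow, so centring changed little. No paired analysis was possible because the deposited tables hold no values per library, and leaving out single libraries was not run for the same reason. The depth per library is unknown, so what it limits was not measured.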

Other observations

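Genes that turn cytokine precursors into secreted cytokines are set beside the members here. These were the inflammasome genes Nlrp3, Pycard and Casp1, the pore-forming Gsdmd, and Adam17, whose protease releases TNF from the cell surface. In spleen all 5 lay above 0 (median 0.11), and 4 of 5 were below 0 in bone marrow (median -0.12). DESeq2 called 0 of them in either of the authors' deposited tables, and 0 passed an unadjusted p under 0.05. Casp1, the protease that cleaves the interleukin-1β precursor, was at 0.14 ± 0.101 in spleen and -0.22 ± 0.118 in bone marrow in the authors' deposited tables. Adam17 was the 1 gene above 0 in bone marrow, at 0.21 ± 0.131 in the authors' deposited table.

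Among markers of other cell types, the T cell and B cell lists had medians above 0 in both tissues. The medians of the remaining lists differed in sign between the tissues. Erythroid markers were at a median of -0.72 in spleen (8 of 8 below 0) and 0.49 in bone marrow (8 of 8 above 0). The medians in spleen and bone marrow were 0.10 and 0.06 for T cells, 0.02 and 0.03 for B cells, -0.17 and 0.12 for NK cells, -0.51 and 0.08 for basophils and mast cells, 0.11 and -0.21 for megakaryocytes, and -0.03 and 0.13 for endothelial and stromal cells. Of these, 1 gene was called in the authors' deposited tables, the globin gene Hbb-bt in bone marrow (0.84 ± 0.223). At an unadjusted p under 0.05 (DESeq2), 5 of 8 erythroid markers were higher in bone marrow and 0 lower (4.19% and 4.65% of all genes). In spleen 0 erythroid markers differed at that level (1.17% of all genes were higher and 1.85% lower). In the other lists, 1 T cell and 1 NK cell marker were higher in bone marrow. In spleen 1 T cell marker was higher, and 1 NK cell, 1 basophil or mast cell and 1 endothelial or stromal marker were lower.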
